A study of Mus musculus with 2 samples.

Results

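Mpo-high cells were the LSK cells with the largest share of Mpo transcripts. A cell was kept if under 10% of its UMIs (unique molecular identifiers, each counting 1 captured transcript) came from mitochondrial genes and if over 1500 genes were detected. Within each of the 2 libraries, a kept cell was a member if its Mpo UMIs per 1000000 UMIs (the unit called CPM here) reached the 90th percentile of that library. This gave 408 members among 4068 kept cells: 153 of 1524 in library 1, whose barcodes end in suffix 1, and 255 of 2544 in library 2.

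The series profiled mouse hematopoietic stem and progenitor cells of the strain C57BL/6JRj by CITE-Seq, in which droplet RNA sequencing is combined with antibodies that carry DNA tags. LSK cells were sorted from bone marrow as cells that lacked the lineage markers CD3, CD4, CD8, B220, CD11b, Gr1 and TER-119 and carried Sca-1 and c-Kit. There were 2 groups without a labelled genetic change or treatment, old mice of 22 to 28 months and young mice of 3 to 5 months, with cells of 4 mice per age and 1 library for each age. Tags for CD150, CD48 and CLCA3A1 were counted beside the transcripts. The suffixes are not paired with an age in the sources used here, so both libraries are described side by side and no ages were compared. Without replicate libraries no p-value is given. The values in parentheses after a ratio, share or difference are 95% intervals. They cover counting error for ratios and the sampling of cells for shares and differences. They do not cover differences between mice or libraries, since cells of 1 library are not replicates.

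Mpo encodes myeloperoxidase, the heme enzyme of the primary (azurophil) granules of neutrophils and monocytes. It is among the first myeloid genes transcribed in multipotent progenitors, and the serine proteases neutrophil elastase (Elane), proteinase 3 (Prtn3) and cathepsin G (Ctsg) are stored in the same granules. The transcription factors PU.1 and C/EBPα drive these genes, and CD48-positive, CD150-negative LSK cells are known to include progenitors biased to granulocytes and monocytes.

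The promoters of 4 granule genes are shown: Mpo, which chose the cells, and the 3 protease genes whose levels are described first. Each line gives the 150 bases before the RefSeq start on GRCm38.p6, read 5′ to 3′ on the strand of the gene, with motif matches in capitals. The stretches lie at chr11:87793634-87793783, + (Mpo), chr10:79879517-79879666, + (Prtn3), chr10:79886162-79886311, + (Elane) and chr14:56102575-56102724, - (Ctsg).
Mpo: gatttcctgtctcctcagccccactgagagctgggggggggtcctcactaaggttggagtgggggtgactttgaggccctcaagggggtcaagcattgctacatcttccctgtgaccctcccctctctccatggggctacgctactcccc
Prtn3: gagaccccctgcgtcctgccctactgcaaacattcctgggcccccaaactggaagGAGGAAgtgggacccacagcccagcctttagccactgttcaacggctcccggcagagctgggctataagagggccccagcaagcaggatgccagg
Elane: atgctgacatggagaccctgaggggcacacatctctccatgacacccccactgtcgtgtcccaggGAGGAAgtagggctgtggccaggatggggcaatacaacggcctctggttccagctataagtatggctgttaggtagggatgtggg
Ctsg: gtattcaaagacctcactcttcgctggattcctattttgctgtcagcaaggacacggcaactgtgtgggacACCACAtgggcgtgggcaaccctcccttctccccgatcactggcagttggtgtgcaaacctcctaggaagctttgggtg
The letters GAGGAA, a core bound by PU.1 that was searched on both strands, began 85 bases before the start of Elane and 95 bases before that of Prtn3. They are found in 14.5% of 32843 promoter stretches of this length. ACCACA, the other strand of the RUNX letters TGTGGT, began 79 bases before the start of Ctsg, and 8.40% of all stretches hold these letters on either strand. The C/EBP letters TTNNGNAA were in none of the 4 stretches and in 22.7% of all. No match was found in the Mpo stretch. A match is a description of letters and not of binding. Prtn3 (chr10:79879667-79883174) and Elane (chr10:79886312-79888216) are neighbours on the same strand, with 3137 bases between them.

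Mpo chose the cells, so its values are a description only. The threshold was 140.3 Mpo CPM in library 1 and 303 in library 2, so the same rank stood for unequal Mpo shares. The nearest cells were at 141 CPM inside and 139.6 CPM outside in library 1, and at 303 and 301 CPM in library 2. The median member held 7 Mpo UMIs in library 1 and 18 in library 2, and 27 members of library 1 held at most 3. No Mpo UMI was found in 74.3% and 70.8% of the kept cells. The members held 85.1% and 86.6% of the Mpo UMIs of kept cells.

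The members were deeper than the other cells. Their median was 24742 UMIs in library 1 and 26493 in library 2, against 14556 and 14216 in the others. Mitochondrial genes gave a median of 5.59% and 5.64% of their UMIs, against 6.08% and 6.17%. A doublet caller marked 8 members and 29 other cells, which were kept. The libraries shared 0 barcodes, and all 408 members had tag counts.

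The label of these cells was checked against its other markers, Elane and Cebpa. Elane was at 195 CPM in the members of library 1 and 122 CPM in library 2, against 0.636 and 0.647 CPM in the other cells, ratios of 307 (185 to 551) and 188 (126 to 296). These transcripts sat in few members. In library 1, 7 of 153 members (4.58%) held an Elane UMI, and 3 of them held 548, 146 and 39 of the 737 UMIs. Without these 3 cells the ratio in library 1 was 1.71 (0.413 to 5.37), an interval that includes 1. In library 2, 51 of 255 members (20%) held one, and the ratio without the 3 leading cells was 66.2 (43.6 to 105). Among the 3660 other cells, 36 held an Elane UMI and none held more than 2.

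Cebpa, the gene of C/EBPα, was at 43.2 CPM in members of library 1 against 35.3 CPM in the others, and at 54.6 against 15.7 CPM in library 2. The ratios were 1.22 (1.03 to 1.45) and 3.48 (3.05 to 3.97), and without the 3 members of most Cebpa UMIs in each library they were 1.08 (0.898 to 1.30) and 3.26 (2.85 to 3.73). The excess was thus small in library 1, where this interval includes 1, and clear in library 2. To compare shares of cells at equal depth, each cell was thinned to 9000 UMIs, which left out 1 member and 242 other cells below that depth. Cebpa was then found in 31.0% (26.5 to 35.7) of members and 17.0% (15.8 to 18.3) of the others (65.7% and 25.5% before thinning). In library 1 alone the thinned shares were 28.3% (21.3 to 36.2) and 26.5% (24.1 to 29.0), and in library 2 32.5% (26.8 to 38.7) and 11.3% (10.0 to 12.8). The cells are therefore called Mpo-high here: Elane was held by a minority of them and Cebpa set them apart mainly in library 2.

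**Figure D1:**
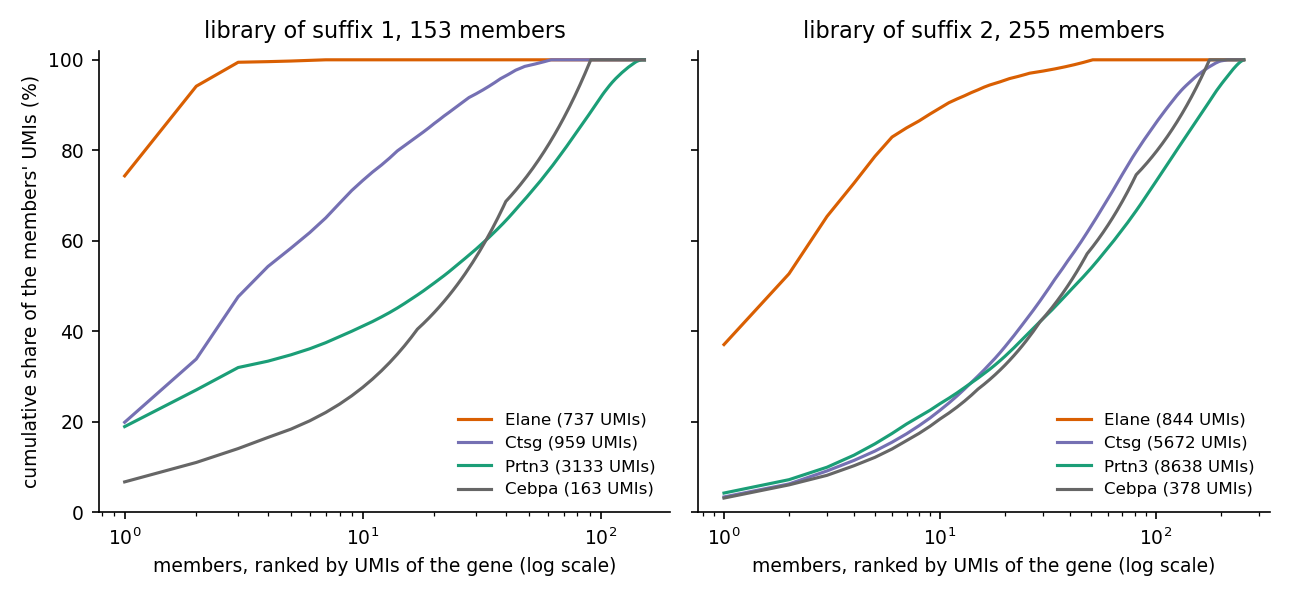
Cumulative share of the members' UMIs (y axis, percent) of Elane, Ctsg, Prtn3 and Cebpa against the members ranked by their UMIs of that gene (x axis, log scale) in library 1 (153 members) and library 2 (255 members). The 3 leading cells held 99.5% of Elane UMIs in library 1 and 65.4% in library 2, and 47.7% and 9.17% of those of Ctsg.

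Ctsg was found in more of the members than of the other cells. It was at 254 and 819 CPM in members against 6.36 and 33.9 CPM in the others, 39.9-fold (33.6 to 47.7) and 24.2-fold (22.7 to 25.7) higher. A Ctsg UMI was found in 62 of 153 members of library 1 and in 214 of 255 of library 2. After thinning, 60.0% (55.0 to 64.7) of members and 5.68% (4.92 to 6.50) of the others held one (67.6% and 7.79% before). CD150-high CD48-low cells, a gate enriched in stem cells in which the gene should be low, gave 0.771% at a median depth of 13334 UMIs before thinning, against 25744 in members. Among the other cells of the CD150-low CD48-high tag gate with a Flt3 UMI, 4.42% (2.98 to 6.29) held Ctsg in library 1 and 16.4% (13.97 to 19.1) in library 2, against 30.9% (23.7 to 38.9) and 77.3% (71.6 to 82.3) of members. Without the 3 leading cells of each library the ratios were 21.5 and 22.3.

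Prtn3, the neighbour of Elane, was spread over nearly all kept cells. After thinning it was found in 97.5% (95.5 to 98.8) of members, 95.2% (94.4 to 95.9) of the others and 96.9% (95.04 to 98.2) of the CD150-high CD48-low cells. It was at 830.1 and 1247 CPM in members against 497 and 679.6 CPM in the others, ratios of 1.67 (1.60 to 1.74) and 1.83 (1.79 to 1.88). In the members without an Elane UMI these ratios were 1.17 (1.11 to 1.22) and 1.29 (1.25 to 1.33), so part of the excess lay in the Elane-positive members.

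Few genes differed by this measure. Of 8237 genes with at least 10 CPM over the kept cells of each library, Mpo left out, 29 (0.352%) were at least 2-fold higher in the members of each library and 129 (1.57%) were at most 0.5-fold. The median log2 ratio of all 8237 genes was -0.018 in library 1 and -0.042 in library 2. A gene such as Elane reached 10 CPM only through the members. Some ratios rested on few cells: without the 3 members of each library that held most UMIs of a gene, a step that favours lower ratios, 16 of the 29 were still at least 2-fold higher in each library, and among those that were not were Elane, Hspa1b, Ap3s1, Tyrobp, Ms4a6c and Rrm2, all through library 1. The cells were chosen by Mpo in the same profiles, so these counts describe them and are not a test.

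The 15 genes of highest ratio in both libraries, with unnamed gene models and mitochondrial and ribosomal protein genes passed over, were led by Elane and Ctsg. Clec12a, an inhibitory lectin receptor of myeloid cells, was 4.41-fold (3.78 to 5.14) and 3.32-fold (2.86 to 3.85) higher. Irf8, a transcription factor of monocyte and dendritic cell fate, was at 80.3 and 106 CPM in members against 25.3 and 30.1 CPM in the others, 3.17-fold (2.76 to 3.65) and 3.51-fold (3.19 to 3.85) higher. Cd48, which encodes the SLAM family receptor CD48, was at 172 and 249 CPM in members against 56.0 and 67.3 CPM in the others, 3.07-fold (2.79 to 3.37) and 3.70-fold (3.47 to 3.93) higher. Cst7, which encodes cystatin F, an inhibitor of the cathepsins that process granule proteases, was 3.04-fold (2.45 to 3.76) and 5.06-fold (4.48 to 5.71) higher. Plac8, a gene of early myeloid and lymphoid progenitors, was 2.32-fold (2.25 to 2.40) and 3.15-fold (3.08 to 3.22) higher. Others among the 15 genes were Hspa1b, Bex6, Hist1h1b, Adgrg3, Pclaf, Nkg7 and Ap3s1, with ratios from 2.31 to 3.95 in either library. Ccl9, a myeloid chemokine gene named after its values were seen, was 2.27-fold (1.99 to 2.59) and 5.49-fold (5.07 to 5.93) higher.

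**Figure D2:**
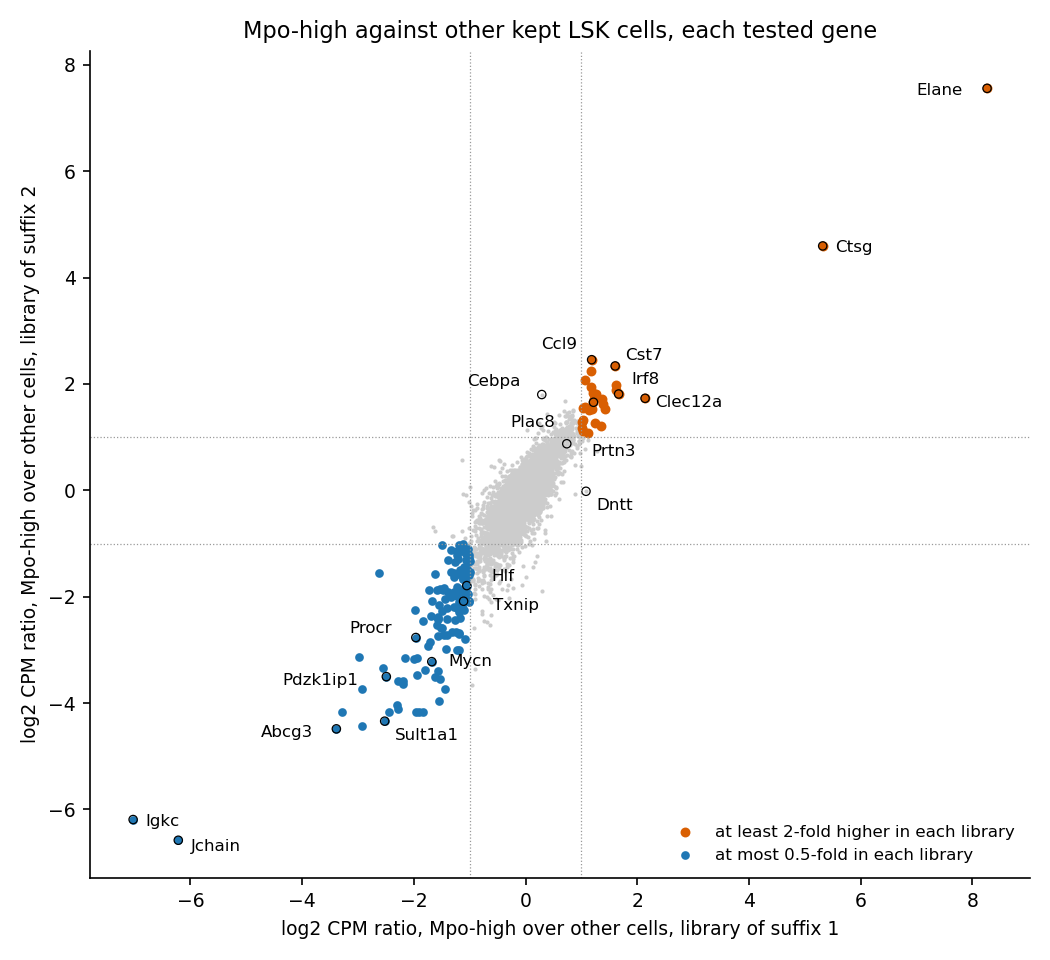
Each tested gene by its log2 CPM ratio of Mpo-high to other kept cells in library 1 (x axis) and library 2 (y axis), with orange points for the 29 genes at least 2-fold higher in each library and blue points for the 129 at most 0.5-fold. Dotted lines mark log2 ratios of 1 and -1. Elane and Ctsg lie far from the rest at the upper right, and Dntt, with ratios of 2.12 and 0.988, is off the diagonal.

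The primary granule genes were uneven. Of 15 on the list, 12 were tested, and 4 of them (Elane, Ctsg, Cst7 and Nkg7) were at least 2-fold higher in each library and none at most 0.5-fold, against 0.352% and 1.57% of all tested genes. Elane in both libraries and Ctsg in library 1 were under 10 CPM in the other cells, so they were tested only through the members. The median log2 ratio of the list was 0.72 in library 1 and 0.94 in library 2. Prss57, a serine protease of these granules, was at ratios of 1.65 (1.39 to 1.96) and 2.62 (2.27 to 3.02), and Serpinb1a, an inhibitor of the granule proteases, at 1.40 (1.30 to 1.50) and 1.90 (1.80 to 2.00). Srgn, whose proteoglycan packs the proteases, was at 1.02 (0.984 to 1.05) and 0.912 (0.891 to 0.934), and Ctsc, whose cathepsin C activates them, at 1.02 (0.878 to 1.18) and 0.858 (0.768 to 0.956). Lyz2, the lysozyme gene of macrophages and granulocytes, was at 0.881 (0.816 to 0.951) and 0.835 (0.790 to 0.883). Of these 5 genes, Prss57 and Serpinb1a were above 1 in each library and Lyz2 was below 1 in each. Ms4a3, a gene of granulocyte-monocyte progenitors below the expression limit, was at 50.6 and 45.5 CPM in members against 1.78 and 3.23 CPM in the others, and 1 member of library 1 held 97 of its 191 UMIs. Its ratios were 1.98 (0.977 to 3.77) and 7.43 (5.83 to 9.48) without the 3 leading cells of each library.

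Genes of later neutrophils were near 0 in the members. Of 15 secondary granule and mature neutrophil genes, only Itgam reached the expression limit. Cd177 and Ly6g, genes of neutrophil surface proteins, had 0 UMIs in all kept cells. Ltf, Camp and Ngp, which encode secondary granule proteins, had 1, 3 and 2 UMIs in members of library 1 and 0, 1 and 3 in library 2. Cebpe, whose factor drives the secondary granule genes, had 13 and 32 UMIs in members, ratios of 5.07 (2.25 to 11.3) and 9.52 (5.18 to 18.0). All 13 in library 1 lay in the 3 members with over 1 Elane UMI, and the ratio in library 2 without the 3 leading cells was 1.81 (0.587 to 4.75). The summed level of the list was 37.1 and 30.3 CPM in members, against 30.1 and 19.4 CPM.

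Among 16 myeloid transcription factors, 14 were tested, 1 (Irf8) was at least 2-fold higher in each library and 1 (Mycn) at most 0.5-fold, where 0.352% and 1.57% of all tested genes were. Their median log2 ratio was -0.042 in library 1 and -0.23 in library 2. Spi1, the gene of PU.1, was at ratios of 1.11 (1.02 to 1.22) and 1.48 (1.39 to 1.57), and Gfi1, a repressor needed for neutrophil development, at 1.02 (0.811 to 1.26) and 1.31 (1.14 to 1.51). Mycn, a MYC family gene active in stem cells, was at 15.9 and 10.7 CPM in members against 50.9 and 99.6 CPM in the others, ratios of 0.313 (0.237 to 0.405) and 0.107 (0.0840 to 0.135). Egr1, an immediate early factor, was at 0.699 (0.627 to 0.776) and 0.334 (0.296 to 0.377). Mycn and Egr1 were thus both lower, and more so in library 2.

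Of 13 tested myeloid cytokine receptor and surface genes, 3 were at least 2-fold higher in each library, as were 0.352% of all tested genes, and none was at most 0.5-fold. Clec12a and Cd48 were among the 3. Csf3r, the receptor gene of granulocyte colony-stimulating factor, was at ratios of 1.20 (1.06 to 1.37) and 1.30 (1.17 to 1.43), and Kit, whose protein was used in the sort, at 0.741 (0.667 to 0.822) and 0.776 (0.717 to 0.838). Cd34, a progenitor antigen gene, was at 1.18 (1.12 to 1.23) and 1.70 (1.64 to 1.76). Csf1r, the receptor gene of macrophage colony-stimulating factor, had 17 and 70 UMIs in members, ratios of 2.79 (1.48 to 5.07) and 6.94 (4.80 to 10.1). These were 1.52 (0.644 to 3.19) and 5.85 (3.97 to 8.64) with the 3 leading cells of each library left out, so in library 1 the interval then includes 1.

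Monocyte and dendritic cell genes were split. Of 7 tested, Tyrobp, the adaptor of myeloid immune receptors, was 2.25-fold (1.99 to 2.54) and 4.72-fold (4.35 to 5.13) higher, and Ms4a6c, a membrane gene of monocytes, 2.10-fold (1.75 to 2.51) and 2.96-fold (2.70 to 3.25). Cd74, the invariant chain of MHC class II, was at 32.1 and 174 CPM in members against 197 and 508 CPM in the others, ratios of 0.162 (0.134 to 0.194) and 0.342 (0.322 to 0.362). Cst3, which encodes cystatin C, was at 0.946 (0.897 to 0.997) and 1.004 (0.968 to 1.04). The list had a median of -0.015 in library 1 and 0.0064 in library 2. Among genes below the expression limit, Ly86, a partner of an innate receptor, was at 9.27 and 27.7 CPM in members against 2.12 and 4.31 CPM in the others, and F13a1, the coagulation factor XIII gene of monocytes, at 5.83 and 19.1 CPM in members against 0.509 and 0.485 CPM. Without the 3 leading cells of each library the ratios were 1.93 (1.004 to 3.48) and 4.50 (3.54 to 5.70) for Ly86 and 1.60 (0.290 to 5.94) and 23.6 (14.01 to 41.9) for F13a1, of which 1 cell held 17 of the 22 UMIs in library 1. Tyrobp and Ms4a6c were at 1.91 (1.68 to 2.18) and 4.33 (3.97 to 4.72) and at 1.53 (1.24 to 1.88) and 2.68 (2.43 to 2.95) without theirs.

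**Figure D3:**
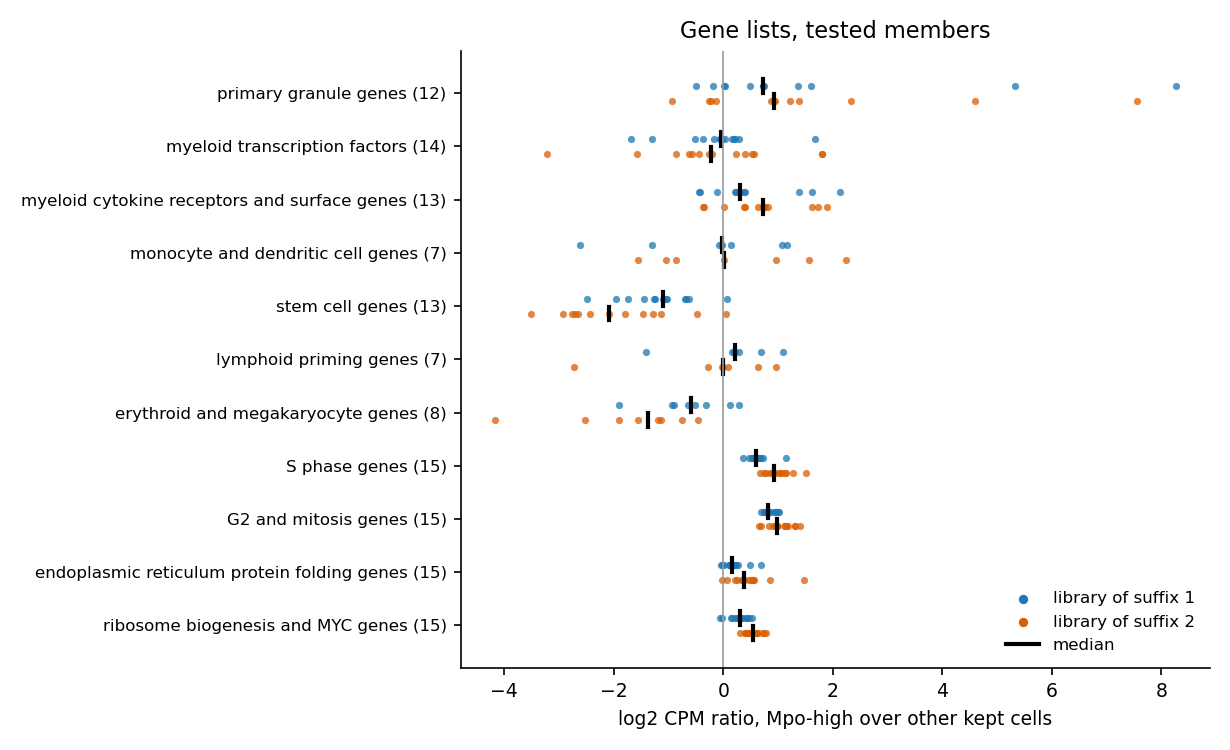
Log2 CPM ratio of Mpo-high to other kept cells (x axis) for each tested gene of the lists on the y axis (number tested in parentheses), with library 1 in blue, library 2 in orange and a black bar at each median. The stem cell genes have medians of -1.11 and -2.08, and all S phase and all G2 and mitosis genes lie above 0.

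Stem cell genes were lower. Of 13 tested, 9 were at most 0.5-fold in each library, against 1.57% of all tested genes, and 12 were below 1 in each library, as were 43.8% of all tested genes. Their median log2 ratio was -1.11 in library 1 and -2.08 in library 2. Procr, which encodes the endothelial protein C receptor EPCR, was at 15.6 and 17.5 CPM in members against 61.0 and 119 CPM in the others, ratios of 0.256 (0.194 to 0.333) and 0.147 (0.122 to 0.176). Hlf, a transcription factor of stem cells, was at 0.482 (0.448 to 0.518) and 0.289 (0.264 to 0.316), and Mecom, which encodes EVI1, at 0.416 (0.337 to 0.508) and 0.185 (0.151 to 0.224). Ly6a, the gene of the sort antigen Sca-1, was at 0.493 (0.448 to 0.542) and 0.413 (0.389 to 0.439). The exception was Cd27, a receptor kept on multipotent progenitors, at 1.05 (0.974 to 1.12) and 1.04 (0.978 to 1.10). Hlf was still found in 53.3% (48.3 to 58.2) of thinned members, against 82.7% (81.3 to 83.9) of the others, and Procr in 14.7% (11.4 to 18.6) against 50.4% (48.7 to 52.1). Slamf1, the gene of CD150, had 1 UMI in members of library 1 and 9 in library 2.

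The 10 genes of lowest ratio in both libraries, chosen in the same way, held Pdzk1ip1, which is on the stem cell list, and 7 further genes: Abcg3, Tinagl1, Clec1a, Tgm2, Tcf15, Aldh1a1 and Sult1a1. Those 7 were at ratios of 0.0957 to 0.174 in library 1 and 0.0447 to 0.114 in library 2. Aldh1a1 encodes a retinaldehyde dehydrogenase and Tcf15 a transcription factor of quiescent stem cells. The other 2 were Igkc and Jchain, the immunoglobulin kappa and joining chain genes of plasma cells, at 0.00768 and 0.0137 and at 0.0135 and 0.0105. In 12 kept cells over 10% of UMIs were immunoglobulin, and none of them was a member. Without those 12 cells the Igkc ratio was 1.68 (0.747 to 3.45) in library 1 and 0.780 (0.700 to 0.868) in library 2, and that of Ighm, which was at 0.378 and 0.151 with them, was 1.80 (1.65 to 1.97) and 1.65 (1.51 to 1.80).

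Of 8 tested erythroid and megakaryocyte genes, 1 was at most 0.5-fold in each library, against 1.57% of all. In all, 6 were below 1 in each, as were 43.8% of all tested genes, and none above 1 in each, with a median log2 ratio of -0.58 in library 1 and -1.38 in library 2. Pf4, the platelet factor 4 gene, was at 0.266 (0.156 to 0.426) and 0.0558 (0.0353 to 0.0840), and Car2, the carbonic anhydrase 2 gene, at 0.523 (0.495 to 0.552) and 0.339 (0.321 to 0.357). Gata1, the erythroid and megakaryocyte factor, had a UMI in 3 members of library 1 and 5 of library 2.

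The lymphoid priming genes were uneven, and the level ratio of Dntt differed between the libraries. Dntt, which encodes the terminal transferase of early lymphoid progenitors, was at 554 CPM in members of library 1 against 262 CPM in the others, a ratio of 2.12 (2.01 to 2.23). In library 2 it was at 174 against 176 CPM, a ratio of 0.988 (0.928 to 1.05). By share of thinned cells it was found in 55.3% (47.0 to 63.3) of members against 29.6% (27.1 to 32.2) of the others in library 1, and in 38.4% (32.4 to 44.7) against 16.2% (14.6 to 17.8) in library 2. Dntt was thus found in more of the members than of the others in both libraries, also in library 2, where the interval of its level ratio included 1. In the CD150-high CD48-low cells the share was 1.35%. Among the other cells of the CD150-low CD48-high tag gate with a Flt3 UMI, 50.3% (46.4 to 54.2) held Dntt in library 1 and 36.6% (33.3 to 39.9) in library 2, intervals that overlap those of the members. Satb1, a chromatin organizer of lymphoid progenitors, was at ratios of 1.62 (1.47 to 1.77) and 1.95 (1.80 to 2.11), and Flt3, the receptor gene of lymphoid-primed progenitors, at 1.16 (1.07 to 1.25) and 1.56 (1.45 to 1.67). Genes of committed lymphoid cells were near 0 in members, with 1 Rag1 UMI in each library and 0 Ly6d UMIs, against 101 and 465 Ly6d UMIs in the others. The 7 tested genes had a median log2 ratio of 0.21 in library 1 and -0.0031 in library 2. Over both libraries the median was 0.11, and it was 0.39 without the 12 immunoglobulin-led cells, -0.020 with members from the 95th percentile up and -0.22 under a stricter cell filter (over 2500 genes, under 5% mitochondrial UMIs), so its sign depended on these choices.

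Of 10 mast cell, basophil and eosinophil genes, none reached the expression limit. Mcpt8, a protease gene of basophils, had 15 UMIs in members of library 1 and 179 in library 2, where 87 of 255 members held one, ratios of 9.37 (3.94 to 23.3) and 14.1 (10.6 to 18.9). Cpa3, the carboxypeptidase gene of mast cells, was at 4.12 (2.96 to 5.71) and 4.09 (3.45 to 4.84). Mcpt8 was at 4.50 (1.45 to 13.1) and 11.9 (8.86 to 16.1) and Cpa3 at 1.38 (0.820 to 2.23) and 2.57 (2.11 to 3.12) without the 3 leading cells of each library, so the excess of Cpa3 in library 1 rested on a few cells. Prg2, which encodes the eosinophil major basic protein, had 632 UMIs in members of library 2, of which 1 cell held 628.

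Cell cycle genes were higher. All 15 S phase genes and all 15 G2 and mitosis genes had a ratio above 1 in each library, as did 37% of all tested genes. The median log2 ratio was 0.61 in library 1 and 0.93 in library 2 for S phase and 0.82 in library 1 and 0.99 in library 2 for G2 and mitosis. Rrm2, a subunit of ribonucleotide reductase, was at 2.21 (1.96 to 2.48) and 2.84 (2.60 to 3.09), and Mki67, the proliferation marker, at 2.03 (1.90 to 2.17) and 1.97 (1.86 to 2.09). Depth moved with these values. Among cells of 15000 to 30000 UMIs, a window added after the depths were seen, 218 members stood against 1394 others. There the S phase median was 0.47 in library 1 and 0.43 in library 2, with all 15 genes above 1 in each library (30% of all genes), and Tyms, the thymidylate synthase gene, was at 1.35 (1.20 to 1.52) and 1.35 (1.23 to 1.48). The G2 and mitosis median was 0.11 in library 1 and -0.41 in library 2, with Mki67 at 1.07 (0.940 to 1.21) and 0.773 (0.688 to 0.866). Of the 15 G2 and mitosis genes, 2 were above 1 in each library of the window and 2 below 1 in each. Of all genes, 30% and 39.1% were. The window narrowed the gap in depth without closing it. Medians were 23042 and 21948 UMIs in members against 19334 and 18648 in the others. The window left out 141 members at or above its upper bound and 49 below its lower bound. The part of depth in these values was not tested.

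In the same window 13 genes (0.16%) were at least 2-fold higher in each library and 64 (0.785%) at most 0.5-fold. Ctsg was 36.9-fold (29.1 to 47.4) and 24.5-fold (22.1 to 27.2) higher and Cd48 2.46-fold (2.14 to 2.82) and 2.92-fold (2.67 to 3.19). Irf8 was at 2.36 (1.93 to 2.88) and 1.92 (1.63 to 2.25) and Cebpa at 1.42 (1.11 to 1.80) and 3.29 (2.71 to 3.99). The stem cell list had a median of -0.87 in library 1 and -1.57 in library 2.

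Protein folding and ribosome biogenesis genes were modestly higher. Of 15 genes for protein folding in the endoplasmic reticulum, 12 were above 1 in each library, as were 37% of all tested genes, and none was at least 2-fold higher in each, with a median of 0.16 in library 1 and 0.37 in library 2. Calr, whose chaperone calreticulin binds the myeloperoxidase precursor, was at 919 and 1307 CPM in members against 658 and 727 CPM in the others, ratios of 1.40 (1.34 to 1.45) and 1.80 (1.75 to 1.84). Sdf2l1, a chaperone partner, was at 1.61 (1.42 to 1.82) and 2.79 (2.56 to 3.05). Of 15 ribosome biogenesis and MYC genes, 13 were above 1 in each library (also against 37%), with a median of 0.30 in library 1 and 0.54 in library 2, and Myc itself was at 1.12 (1.03 to 1.21) and 1.53 (1.44 to 1.63). The summed level of 15 markers of mature B, T, plasma, erythroid and macrophage cells was 21.7 and 64.4 CPM in members, against 432 and 4192 CPM in the others. Without the 12 immunoglobulin-led cells, the sum in the others was 29.5 and 93.1 CPM. Cd3e, Ms4a1 and Trac had 0 UMIs in the members.

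The tags were not used to choose the cells. The median CD48 tag count was 1047 in members of library 1 and 792 in library 2, against 409 and 106 in the others. The difference was 0.408 (0.365 to 0.456) and 0.873 (0.825 to 0.916) on the log10 scale, and 95.4% and 100% of members lay above the median of the others. Among cells of 15000 to 30000 UMIs the difference was smaller, 0.234 (0.197 to 0.305) and 0.518 (0.438 to 0.619), and over both libraries the stricter cell filter gave 0.208 against 0.616. The groups overlapped at the level of single cells: from the 5th to the 95th percentile the members of library 1 ran from 475 to 1430 tags and the others from 82 to 1140. CD150, the SLAM receptor of stem cells, had a median of 4 and 5 tags in members against 8 and 30, a difference of -0.301 (-0.436 to -0.116) and -0.778 (-0.911 to -0.653). In the depth window this was -0.125 (-0.430 to 0.0128), which includes 0, and -0.556 (-0.757 to -0.444), and the stricter filter gave -0.107 against -0.477 over both libraries. CLCA3A1, a surface protein tagged through its phycoerythrin-labelled secondary antibody, had a median of 8 and 10 tags against 9 and 32.5. Its difference was -0.0512 (-0.184 to 0.0584) in library 1, which includes 0, and -0.512 (-0.618 to -0.447) in library 2. Over both libraries it changed sign under the stricter filter, at 0.0458 against -0.301. Tag reads mapped to no antibody were also higher in members, with medians of 79 and 42 against 39 and 24, and the part of tag depth in the CD48 difference was not tested.

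**Figure D4:**
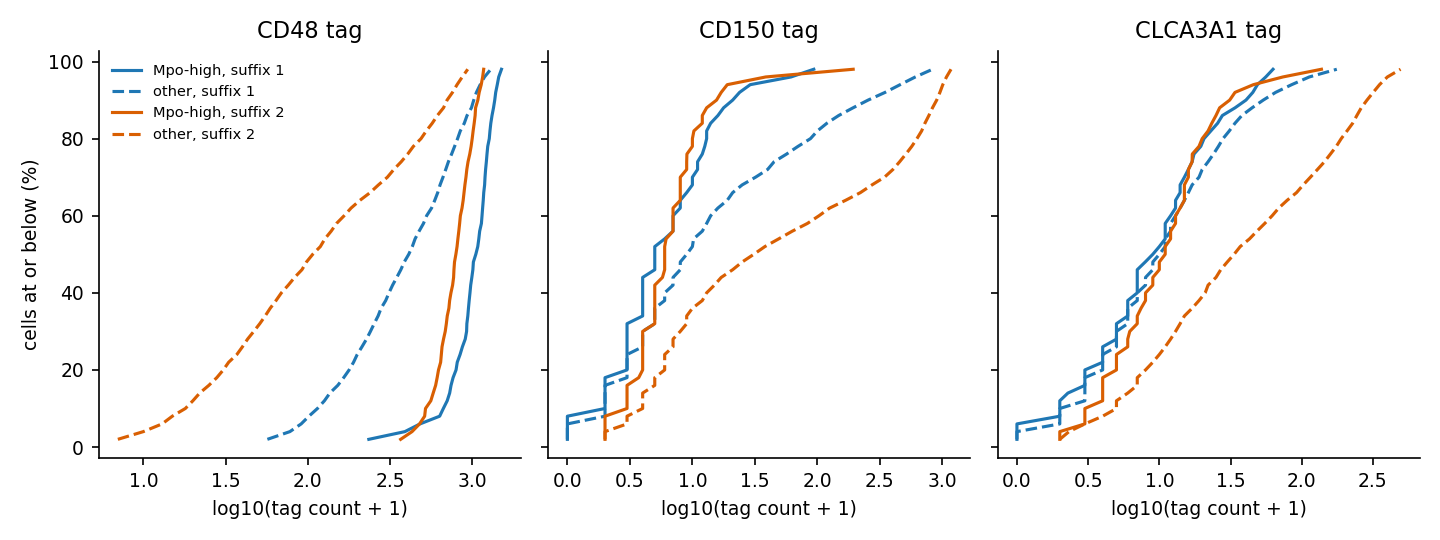
Cumulative share of cells (y axis, percent) at or below a tag count (x axis, log10 of the count plus 1) for CD48, CD150 and CLCA3A1, with solid lines for Mpo-high cells, dashed lines for other kept cells, library 1 in blue and library 2 in orange. The CD48 curves of the members lie to the right of those of the others, with medians of 1047 and 792 against 409 and 106 tags.

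Gates were set at the 75th percentile of CD150 and the 25th percentile of CD48 of each library. In the CD150-low CD48-high gate were 393 of 408 members (96.3%, 94.0 to 97.9) and 2134 of 3578 other cells with tags (59.6%, 58.0 to 61.3). With both gates set at the medians instead, it held 79.2% of members. The CD150-high CD48-low gate held 0 of 408 members, which allows a share of up to 0.735%, and 555 other cells. The members made up 15.6% of the CD150-low CD48-high gate in library 1 and 15.5% in library 2. A Flt3 UMI was found in 68.6% (63.8 to 73.0) of thinned members and 44.1% (42.4 to 45.8) of the others, against 3.47% (2.07 to 5.43) of the CD150-high CD48-low cells (87.3%, 52.3% and 6.31% before thinning).

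Fewer genes passed the limits within the CD150-low CD48-high gate. Of 8108 genes, 17 (0.21%) were at least 2-fold higher in each library and 40 (0.493%) at most 0.5-fold. Ctsg was 28.2-fold (23.5 to 34.1) and 16.3-fold (15.3 to 17.3) higher, Irf8 2.27-fold (1.96 to 2.62) and 2.53-fold (2.30 to 2.78) and Cd48 2.19-fold (1.98 to 2.42) and 2.49-fold (2.34 to 2.65). The CD48 tag was still higher, by 0.222 (0.189 to 0.270) and 0.453 (0.410 to 0.496) on the log10 scale. Cebpa was at ratios of 0.963 (0.804 to 1.15) and 2.49 (2.17 to 2.84) and Flt3 at 0.878 (0.813 to 0.948) and 1.07 (0.999 to 1.15). In library 1 the interval of Cebpa within this gate thus included 1. The primary granule list had a median of 0.50 in library 1 and 0.70 in library 2, and the stem cell list of -0.78 in library 1 and -1.64 in library 2, with Procr at 0.348 (0.258 to 0.462) and 0.237 (0.194 to 0.288).

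The other cells of the same gate with a Flt3 UMI, 1528 cells, were then set against the 346 members of the gate with one. Only 4 of 8059 genes (0.0496%) were at least 2-fold higher in each library, and 21 (0.261%) were at most 0.5-fold. The 4 were Ctsg, 17.5-fold (14.4 to 21.2) and 10.8-fold (10.1 to 11.5) higher, Cd48, 2.10-fold (1.89 to 2.33) and 2.07-fold (1.93 to 2.21), Ms4a6c, 2.17-fold (1.73 to 2.71) and 2.03-fold (1.83 to 2.26), and the heat shock gene Hspa1b, 2.66-fold (2.05 to 3.44) and 3.07-fold (2.63 to 3.58). Without the 3 leading cells of each library Ctsg was at 10.9 (8.87 to 13.4) and 10.1 (9.45 to 10.8), Cd48 at 1.96 (1.76 to 2.18) and 2.01 (1.88 to 2.16), Ms4a6c at 1.59 (1.23 to 2.04) and 1.81 (1.62 to 2.02) and Hspa1b at 1.32 (0.939 to 1.83) and 2.58 (2.20 to 3.04), so that of the 4 Ctsg alone was at least 2-fold higher in each. Elane was below the expression limit in this comparison, with 43 and 364 UMIs in members against 9 and 10. Irf8 was at ratios of 2.14 (1.85 to 2.48) and 1.95 (1.77 to 2.16) and Cebpa at 0.942 (0.780 to 1.13) and 2.06 (1.77 to 2.39). Among the 21 lower genes were Procr, at 0.355 (0.257 to 0.481) and 0.305 (0.245 to 0.376), and Cd74, at 0.172 (0.141 to 0.208) and 0.330 (0.309 to 0.351). Dntt lay on opposite sides of 1, at 1.40 (1.33 to 1.47) in library 1 and 0.491 (0.460 to 0.522) in library 2. The stem cell median was -0.73 in library 1 and -1.38 in library 2, and all 15 S phase genes were above 1 in each library (31.9% of all genes). Against the Flt3-negative cells of the gate, 81 of 8062 genes (1%) were at least 2-fold higher and 276 (3.42%) at most 0.5-fold, with 11 members in library 1 and 36 in library 2.

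The members with an Elane UMI, 7 in library 1 and 51 in library 2, were set against the other 350. This split was made after the data were seen. Their median depth was 35720 and 32634 UMIs, against 23895 and 25266 in the Elane-negative members, and the part of depth in this split was not tested. Of 7742 genes, 23 (0.297%) were at least 2-fold higher in each library and 41 (0.53%) at most 0.5-fold. Elane, which made the split, was kept in these counts and is among the 23 by construction. Ly6c2, described below, reached 10 CPM only through the Elane-positive members. Prtn3 was 7.84-fold (7.28 to 8.45) and 2.80-fold (2.68 to 2.92) higher and Ctsg 14.4-fold (12.6 to 16.3) and 2.85-fold (2.70 to 3.00). In library 1 this rested on the 3 members with over 1 Elane UMI, which were at 10330.2 CPM of Prtn3 and 4707 of Ctsg. The 4 members with 1 Elane UMI were at 555 and 99.6 CPM, and the members without one at 580.2 and 138 CPM. In library 2 the 25 members with 1 Elane UMI were at 1392 and 1184 CPM, above the 875 and 569.7 CPM of the members without one. Ly6c2, an antigen gene of monocytes and their progenitors, was at 295 and 155 CPM in Elane-positive members and at 0.565 and 1.89 CPM in Elane-negative members, where the other kept cells had 4.50 and 6.82 CPM. One member of library 1 held 61 of the 72 Ly6c2 UMIs. F13a1 was at 75.8 and 69.0 against 1.13 and 3.59 CPM, and Ms4a3 at 749 and 148 against 3.68 and 13.6 CPM. In library 1 all UMIs of these 3 genes in the Elane-positive members lay in the same 3 cells. The 3 genes were chosen after their values were seen. Of the 7 tested monocyte and dendritic cell genes, 3 were at least 2-fold higher in each library and 2 were below 1 in each. Of all genes, 0.297% and 35.9% were. All 15 endoplasmic reticulum folding genes were above 1 in each library (24.1% of all genes), with a median of 0.99 in library 1 and 0.32 in library 2, and the stem cell median was -1.50 in library 1 and -0.92 in library 2. Dntt was at 0.202 (0.134 to 0.293) and 0.564 (0.478 to 0.661). In library 1 the list medians and the Dntt ratio also rest on those 7 members, and their spread over the cells is not given here. The CD48 tag had medians of 1252 and 895 against 1014 and 769.5. On the log10 scale the difference was 0.0914 (-0.120 to 0.153) in library 1, which includes 0, and 0.0656 (0.0310 to 0.102) in library 2.

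The 350 Elane-negative members were also set against all other kept cells. There 22 of 8246 genes (0.267%) were at least 2-fold higher in each library and 117 (1.42%) at most 0.5-fold. Ctsg was 21.7-fold (18.0 to 26.2) and 16.8-fold (15.7 to 18.0) higher, Irf8 3.13-fold (2.71 to 3.61) and 2.49-fold (2.21 to 2.79) and Plac8 2.18-fold (2.11 to 2.25) and 2.72-fold (2.66 to 2.79). The stem cell median was -1.05 in library 1 and -1.87 in library 2.

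Granule, dendritic and lymphoid transcripts were also compared within single members after thinning. Of Ctsg-positive members 51.1% (36.1 to 65.9) held Irf8 in library 1 and 41.1% (34.2 to 48.3) in library 2, against 27.6% (19.3 to 37.2) and 13.8% (6.15 to 25.4) of Ctsg-negative members. Irf8 was thus found more often beside Ctsg, with overlapping intervals in library 1. Of Irf8-positive members 79.2% (65.9 to 89.2) and 48.3% (37.6 to 59.2) held Dntt, against 42.4% (32.5 to 52.8) and 33.1% (26.0 to 40.8) of Irf8-negative members. Dntt was found in 55.3% (40.1 to 69.8) and 39.6% (32.7 to 46.8) of Ctsg-positive and in 55.2% (45.2 to 65.0) and 34.5% (22.5 to 48.1) of Ctsg-negative members, with overlapping intervals in both libraries. Of Elane-positive members 0 of 3 in library 1 and 8 of 33 in library 2 held Dntt.

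The kept cells were also ordered by their Mpo share in 6 classes. Ctsg was at 2.43 CPM in cells of library 1 without an Mpo UMI and at 22.2 CPM in the class just below the members. It was at 48.2, 146 and 1379 CPM in the 3 classes of members, cut at the 95th and 99th percentile. In library 2 the same 5 values were 3.75, 164, 319, 899 and 2355 CPM. Ctsg thus increased with each class. Elane was at most 14.1 CPM in any class below the 99th percentile and at 1574 and 905 CPM above it, in 16 and 26 cells. In library 1 this rested on 3 cells, which held 548, 146 and 39 of the 737 Elane UMIs of its members. The same 3 cells held 457 of the 959 Ctsg UMIs of its members, so the top Ctsg value there also drew on them. Hlf was at 483 and 299.9 CPM without Mpo and at 90.1 and 26.4 CPM in the top class. The median depth was 13977 and 13607 UMIs without Mpo and 30730.5 and 32985 in the top class.

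Dntt did not follow the Mpo share in 1 direction. In library 2 it was at 64.5 CPM without Mpo, 570.0 CPM just below the members, and 265, 124 and 11.5 CPM in the classes of members. In library 1 these values were 195, 469, 686, 513 and 214 CPM. Dntt was thus highest near the threshold and lower in the top class in both libraries, although a class stands for unequal Mpo shares in them. The CD48 tag was higher in members than in the class just below by 0.141 (0.0752 to 0.201) in library 1 and 0.0740 (0.0523 to 0.113) in library 2 on the log10 scale, less than the difference from all other cells.

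**Figure D5:**
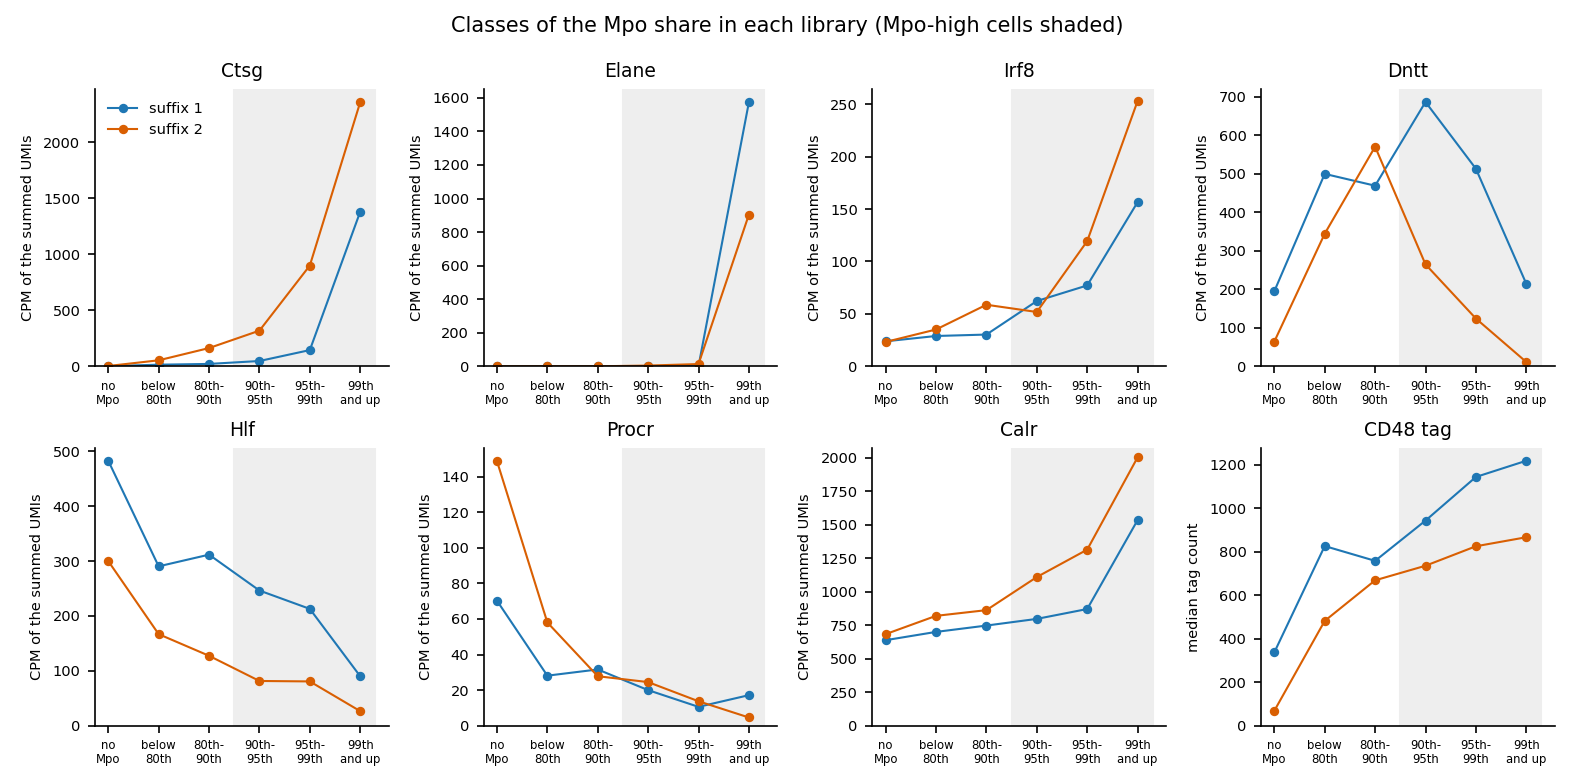
CPM of Ctsg, Elane, Irf8, Dntt, Hlf, Procr and Calr and the median CD48 tag count (y axes) over 6 classes of the Mpo share (x axis, percentiles), with library 1 (suffix 1) in blue, library 2 (suffix 2) in orange and the classes of Mpo-high cells shaded. Elane stands out in the last class, at 1574 and 905 CPM, in library 1 mainly through 3 cells. Dntt is at 214 and 11.5 CPM there.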

How the data were processed

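LSK cells of C57BL/6JRj mice of 2 age groups were profiled by CITE-Seq (Chromium 3' chemistry). The authors deposited UMI counts per gene and cell, made with Cell Ranger 3.1.0 (mm10, per the submitters' processing notes), with both libraries joined and depth normalized by the aggregation step of that tool. Its mode was not given in the sources used here. The deposited tag values are log10 counts per cell, which the authors counted with CITE-seq-Count. The matrix held 31053 genes and 4688 cells.

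UMIs were summed over members and over other cells of each library and divided by the summed totals (27345371 and 44021962 UMIs in kept cells). The 95% intervals were exact Poisson for levels, conditional binomial for ratios, Clopper-Pearson for shares and order statistics for medians. A count of 0 was taken to allow 3. Genes were called at 2-fold or 0.5-fold in each library among those of at least 10 CPM in each. Named genes were the markers, the 15 highest and 10 lowest by the smaller change of the libraries (genes named Gm, Rik, mt- or Rps and Rpl were counted but not named), and members of 14 lists (1 of 212 symbols was not matched, and 1 named gene is not reported here). The members and lists were chosen with earlier results of these data known. The scripts were tested on simulated counts. No clustering was made and called doublets were kept (scanpy 1.11.5, scrublet). Cells were thinned with a fixed seed. Python 3.11.15, numpy 2.4.6, scipy 1.17.1, pandas 2.3.3 and matplotlib 3.10.9 were used. Promoters came from RefSeq on GRCm38.p6. Alternatives changed the Mpo percentile, the cell filter, the scaling, the expression limit, the comparison cells, the tag transformation and the gates.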

Additional observations from a re-analysis of the deposited data

Results flagged for a closer look

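Itgam, the gene of the integrin CD11b that the sort selected against, was at a ratio of 0.715 (0.526 to 0.954) in library 1 and 1.49 (1.18 to 1.85) in library 2. It is given here because the libraries lie on opposite sides of 1. The difference between them was not tested, and the values rest on 52 and 103 UMIs in members.

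Tag reads mapped to no antibody, which enter no comparison of surface proteins, were higher in members by 0.249 (0.215 to 0.275) on the log10 scale, with medians of 51.5 and 29 per cell. RNA depth moved with it, with medians of 25744 and 14323 UMIs. Among cells of 15000 to 30000 UMIs the difference was 0.0850 (0.0529 to 0.137).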

How the results depend on the processing

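Both libraries together, the values were 29 genes higher and 129 lower, ratios of 229.8 for Elane and 2.17 for Cebpa, tag differences of 0.616 (CD48), -0.477 (CD150) and -0.301 (CLCA3A1) on the log10 scale, 96.3% of members in the CD150-low CD48-high gate, and median log2 ratios of 0.87 (primary granule), -1.73 (stem cell), 0.11 (lymphoid priming), 0.77 (S phase) and 0.98 (G2 and mitosis). Of the recomputed values, 75 stayed within the counting interval or within 1.5 times a count, 71 moved by more without a change of sign and 5 changed sign. List medians are given below in the same order, granule to G2, where they moved.

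With members above the 95th percentile, 63 genes were higher and the medians were 1.02, -1.96, -0.020 (changed sign), 0.67 and 1.05. Above the 80th percentile, 80 genes were lower, Elane was at 122, the tags at 0.661, -0.623 and -0.419, and the medians from stem cell on at -1.49, 0.44, 0.84 and 1.08. With Mpo UMIs counted after thinning (561 members, 376 of them among the 408), 17 genes were higher and 82 lower, Elane was at 159 and the medians at 0.80, -1.56, 0.33, 0.74 and 0.92. The stricter cell filter (over 2500 genes, under 5% mitochondrial UMIs) gave 38 members and 334 others among the cells it kept. Cebpa was then at 2.87 and the tags at 0.208, -0.107 and 0.0458 (changed sign). The medians were 0.73, -1.11, -0.22 (changed sign), 0.50 and -0.10 (changed sign).

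With each cell weighted the same, 99 genes were higher, with medians of 0.95 (granule), 0.33 (lymphoid), 1.03 and 1.32. Median of ratios scaling, which moved the median of all genes from -0.035 to 0.065, gave 0.97, -1.63, 0.21, 0.87 and 1.08. A limit of 3 CPM gave 55 and 335 genes and a stem cell median of -1.97. Requiring only a UMI in each of the 4 sums gave 212 and 685 genes and medians of 0.99, -1.97 and 0.013 for granule, stem cell and lymphoid genes, with more genes of few UMIs tested. Against the cells at or below the median Mpo share, which was 0 and so took in all 2933 cells without an Mpo UMI, 94 genes were higher, Cebpa was at 2.49, the tags at 0.781, -0.748 and -0.407, and the medians at 1.16, -2.09, 0.51, 1.09 and 1.38. Centred log ratios gave -0.214 for CLCA3A1, and gates at the medians held 79.2% of members.

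The depth window, chosen after seeing the data, gave 13 and 64 genes, 0.333 for CD48 and medians of 0.71, -1.21, 0.30, 0.47 and -0.17 (changed sign). Leaving out the immunoglobulin-led cells, also chosen after seeing the data, gave a lymphoid median of 0.39. Without the 3 leading cells of each gene, chosen likewise, 16 genes were higher, with Elane at 84.2 and Cebpa at 2.06. Each library alone is given in the report. The CD48 difference from the class just below the members was 0.102 over both libraries and 0.141 and 0.0740 in each, and the granule median within the CD150-low CD48-high gate was 0.68 over both and 0.50 in library 1. The causes of these moves were not tested, also where an alternative changed the cells or genes entered. Few Mpo UMIs per cell set membership in library 1, where 27 members held at most 3. No paired analysis was possible because each age had 1 library and no value came from a test.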
